A study of Mus musculus with 27 samples.

Results

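The genes described here are Arntl, which encodes the clock activator BMAL1, Clock and Npas2, which encode its alternative partners, and the nuclear receptor genes Nr1d1 (REV-ERB alpha), Nr1d2 (REV-ERB beta) and Rora (ROR alpha). They were found as the rows of the count table whose Ensembl identifiers carry these 6 mouse symbols, and they are 6 of the 20446 genes in the table. All 6 passed the filter on low counts. The samples are C2C12 cells, a mouse myoblast line, grown in 10% FBS, differentiated in 2% horse serum and exposed to 50% horse serum for 2 h, a pulse used to set the clocks of cultured cells to a common phase. Total RNA depleted of ribosomal RNA was sequenced from 3 libraries at each of 9 time points, 12, 18, 24, 30, 36, 42, 48, 54 and 60 h after the pulse. All groups share the cell line, the differentiation and the pulse, and no group without the pulse was analysed here. Whether the 3 libraries of a time point are separate cultures is not stated; the p-values then reflect just the spread among libraries, and that spread may be technical.

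BMAL1 pairs with CLOCK or NPAS2 through PAS domains, and the pair binds E-boxes (CACGTG) and drives the period and cryptochrome genes, the REV-ERB genes and many outputs. REV-ERB alpha and beta are heme-binding receptors that recruit the NCOR and HDAC3 corepressor complex to ROR elements, DNA sites with a core such as TAGGTCA. ROR alpha activates through the same elements, and Arntl is the classical target of both, which makes this the second feedback loop of the mammalian clock. In skeletal muscle REV-ERB alpha is known for effects on mitochondrial content and autophagy.

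The start region of Arntl is shown because it carries the element that joins the receptors to the activator. Windows from 250 bases before to 50 after each RefSeq transcript start (GRCm38.p6) were searched on both strands for the E-box CACGTG, its variant CACGTT, the ROR element core TAGGTCA, the looser core TAGGTNA, which includes TAGGTCA, and the D-box TTANGTAA. All 6 genes had at least 1 window. The Arntl windows held the looser core at 2 places, both on the strand of the gene and both within annotated first exons that are untranslated. Capitals mark the core.
Arntl, chr7:113207494-113207523, plus strand: tggtcggaaagTAGGTTAgtggtgcgacat
Arntl, chr7:113207530-113207559, plus strand: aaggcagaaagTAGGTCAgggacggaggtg
The first core began 41 bases into the transcript that starts at 113207465, or 6 bases before the transcript that starts at 113207511, and the second began at base 31 of the transcript that starts at 113207511. Among all 32851 windows of this length in the table, 2.61% held TAGGTCA and 8.29% held TAGGTNA. Nr1d1 held 1 CACGTT, which 4.68% of windows held, shown on the strand of the gene with the matching letters in capitals; it lay 28 bases before the RefSeq start.
Nr1d1, chr11:98775388-98775417, minus strand: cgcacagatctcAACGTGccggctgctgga
No other match lay in the windows of the 6 genes, which says only that these letters are absent from these windows; CACGTG was found in 7.15% of all windows and TTANGTAA in 2.32%.

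The libraries held 15.2 M to 26.6 M counted reads (median 20.9 M), and 12687 genes passed the filter on low counts. In all 27 pairs of libraries from 1 time point the counts differed beyond sampling noise, so each library was counted as a replicate. All 15 myotube markers, Myog, Ckm and Acta1 among them, were at 1 CPM (reads of a gene per M counted reads of the library) or more, with a summed level of 19000 to 22600 CPM, whereas the summed levels of 6 adipocyte, 8 immune and endothelial and 5 neural markers stayed at or under 0.221, 1.98 and 0.534 CPM. Libraries sharing a replicate number resembled each other: time explained 57.1% and the number 38.2% of the first principal component, which held 27.3% of the variance. Of the second component, which held 18.7%, time explained 46.3% and the number 47.8%. The 9 libraries numbered 2 stood furthest apart, so results that rest on them are given with and without them. The summed level of 6 myoblast and reserve cell markers was 176 to 207 CPM in these 9 libraries, 208 to 265 CPM in those numbered 1 and 224 to 265 CPM in those numbered 3.

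Nr1d2 and Clock were the most abundant of the 6 per length, and Npas2 was the scarcest. Per kilobase of annotated exon, the level of Nr1d2 averaged 14.3 CPM, that of Clock 10.5, that of Arntl 5.36, that of Nr1d1 3.25, that of Rora 0.627 and that of Npas2 0.185. The ranges of Nr1d2 and Clock over the 27 libraries overlapped, with Nr1d2 the higher in 26, and so did those of Arntl and Nr1d1, with Arntl the higher in 25. The remaining neighbours in this order did not overlap in any library. Npas2, which encodes the partner that replaces CLOCK in some tissues, had 5 to 35 reads per library, so its values carry the largest counting error.

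**Figure D1:**
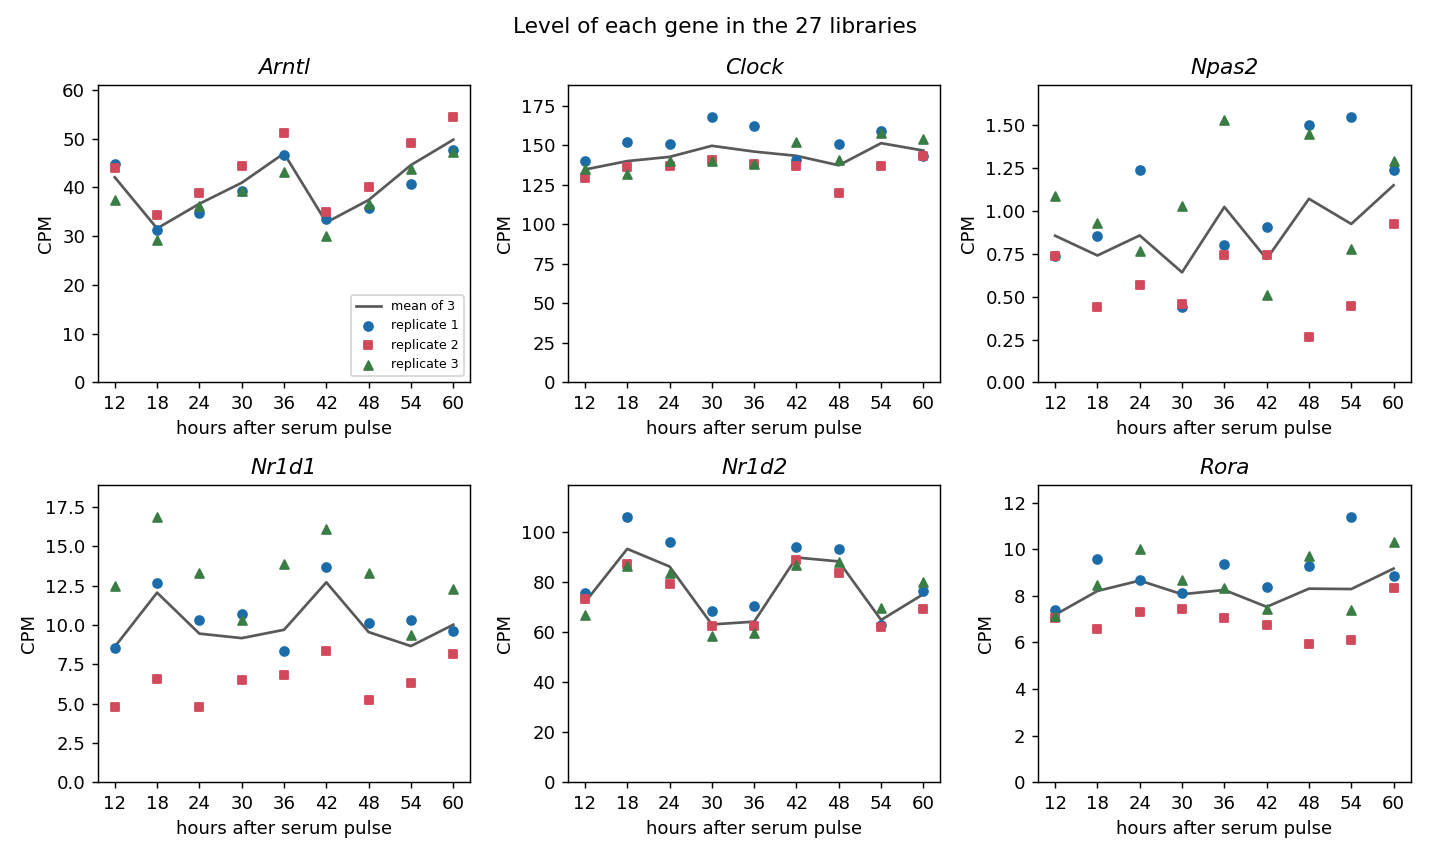
Level of each gene (CPM, y axis from 0) against hours after the serum pulse, with 1 point per library marked by replicate number and a line through the means of 3. Nr1d2 is high at 18, 24, 42 and 48 h and Arntl has its lowest means at 18 and 42 h, while Clock, Npas2 and Rora show no such alternation and the Nr1d1 libraries numbered 2 lie below the others at all 9 time points.

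Nr1d2, the REV-ERB beta gene (mm10 chromosome 14, 18204054 to 18239127, minus strand), was high at 18 and 24 h and again at 42 and 48 h. Its levels in replicates 1, 2 and 3 were 75.5, 73.1 and 66.8 CPM at 12 h, 106, 86.9 and 86.4 at 18 h and 95.8, 79.0 and 83.4 at 24 h. They were 68.2, 62.2 and 58.5 CPM at 30 h, 70.3, 62.5 and 59.4 at 36 h and 93.7, 88.5 and 86.8 at 42 h. They were 93.1, 83.4 and 87.8 CPM at 48 h, 62.6, 62.0 and 69.6 at 54 h and 76.3, 69.1 and 79.8 at 60 h. Every library at 18, 24, 42 and 48 h was above every library at 12, 30, 36 and 54 h, and 1 library at 60 h, at 79.8 CPM, exceeded the lowest of the high ones. In edgeR's quasi-likelihood test Nr1d2 changed over the time points (adjusted p = 4.07e-05), as did Arntl, 2 of the 6 against 18.5% of all genes tested. A wave with a 24 h period, fitted beside a linear trend, had a log2 swing from trough to peak of 0.61 ± 0.07 (SE), a 1.52-fold range, with its peak at 20 ± 0.403 h (adjusted p = 4.69e-05). The fitted waves of 7 proliferation markers peaked at 18.3 to 20.7 h, around the hour of Nr1d2, with log2 swings of 0.20 to 0.56; none was called by edgeR, although 3 (Ccnb1, Ccna2 and Bub1) had an unadjusted p under 0.05, and 6 of the 7 passed the test of any change. Their summed level was 718 to 800 CPM at 12 h, 923 to 1260 at 18 h, 787 to 859 at 24 h, 762 to 845 at 30 h, 880 to 996 at 36 h, 845 to 943 at 42 h, 935 to 984 at 48 h, 936 to 959 at 54 h and 863 to 909 at 60 h, and its part in the result was not tested.

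Arntl, the gene of BMAL1 (chromosome 7, 113207465 to 113314126, plus strand), moved the opposite way. Its levels in replicates 1, 2 and 3 were 44.9, 44 and 37.4 CPM at 12 h, 31.3, 34.3 and 29.2 at 18 h and 34.8, 38.9 and 36.3 at 24 h. They were 39.2, 44.4 and 39.3 CPM at 30 h, 46.7, 51.1 and 43.2 at 36 h and 33.5, 34.9 and 30.1 at 42 h. They were 35.7, 40 and 36.6 CPM at 48 h, 40.8, 49.2 and 43.8 at 54 h and 47.7, 54.5 and 47.2 at 60 h. Its means were lowest at 18 and 42 h, where those of Nr1d2 were highest, and they climbed over the next 18 h each time. In all 3 replicate numbers the 18 h library was below the 12 h and 24 h ones, and the 42 h library below the 36 h and 48 h ones. The edgeR test of any change gave an adjusted p of 7.86e-05. That call was lost without replicate 1 (adjusted p = 0.0565) and kept without replicate 2 (0.00188) or replicate 3 (0.0147). The wave had a log2 swing of 0.50 ± 0.08, a 1.41-fold range, with its peak at 8.95 ± 0.575 h (adjusted p = 0.00391). Arntl and Nr1d2 were the 2 of the 6 genes called for the wave, a call that 0.0552% of all genes received. Within replicates 1, 2 and 3 alone the swing was 0.51, 0.52 and 0.49 for Arntl and 0.68, 0.55 and 0.60 for Nr1d2. The Arntl call was lost without the 12 h libraries (swing 0.48, adjusted p = 0.0855) and without the libraries of any 1 replicate number (swing 0.48 to 0.51, adjusted p = 0.0552 to 0.888), whereas that of Nr1d2 held without any 1 number (adjusted p = 0.0046 to 0.0166).

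Times 12 h apart give opposite phases of a daily cycle with no assumed wave shape. At 18 and 42 h, Nr1d2 ranged from 86.4 to 106 CPM (median 87.7, n = 6), against 58.5 to 69.6 CPM (median 62.4, n = 6) at 30 and 54 h. These groups did not overlap, and the log2 difference was 0.52 ± 0.07 (adjusted p = 5.33e-05). Arntl ranged from 29.2 to 34.9 CPM (median 32.4) at 18 and 42 h, against 39.2 to 49.2 CPM (median 42.3) at 30 and 54 h. It was lower at 18 and 42 h by 0.41 ± 0.07 on the log2 scale (adjusted p = 0.00148), again with no overlap. These were the 2 of 6 genes called in this comparison, in which 1.18% of all genes were called. The Arntl call was lost without replicate 1 (adjusted p = 0.152) or replicate 3 (0.0956) and kept without replicate 2 (0.0124).

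The same pair differed 6 h later in the cycle. Nr1d2 ranged from 79.0 to 95.8 CPM (median 85.6) at 24 and 48 h, against 59.4 to 79.8 CPM (median 69.7) at 36 and 60 h, a log2 difference of 0.33 ± 0.07 (adjusted p = 0.012). Here 1 library of the second group lay above the lowest of the first, and the call was lost on leaving out any 1 of 5 libraries (24 h and 48 h replicate 1, 36 h replicates 2 and 3, 60 h replicate 2), with adjusted p up to 0.0592. Arntl ranged from 34.8 to 40 CPM (median 36.4) at 24 and 48 h, against 43.2 to 54.5 CPM (median 47.4) at 36 and 60 h. It was lower at 24 and 48 h by 0.39 ± 0.07 (adjusted p = 0.00369) and its groups did not overlap. Without all libraries numbered 1, 2 or 3 the Nr1d2 call was lost (adjusted p = 0.154, 0.147 and 0.237), and that of Arntl without 1 or 3 (0.379 and 0.0854). The share of all genes called in this comparison was 0.906%.

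**Figure D2:**
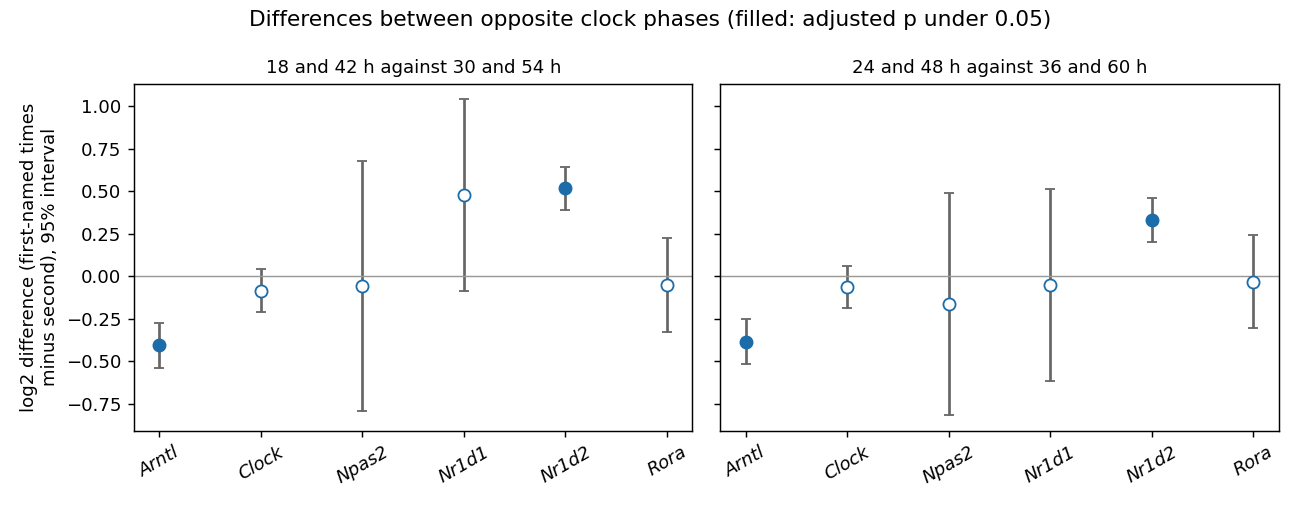
Log2 difference of each gene between opposite phases (first-named times minus second, 6 libraries each), with 95% intervals; filled points had an adjusted p under 0.05. Arntl lies below 0 and Nr1d2 above 0 in both panels, and the intervals of Clock, Npas2, Nr1d1 and Rora cross 0.

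Because the members were counted in the same libraries, the log2 ratio of a pair within a library gives how far they moved apart. For Arntl over Nr1d2 at 18 and 42 h against 30 and 54 h, the levels above had already fixed the permutation p. Both genes separated there without overlap and in opposite directions, so this ratio restates those calls and adds no support. The other ratios with Arntl or Nr1d2 also draw on levels already called above. Arntl over Nr1d2 averaged -1.50 ± 0.154 (SD, n = 6) at 18 and 42 h and -0.58 ± 0.159 (n = 6) at 30 and 54 h, a difference of -0.92 (two-sided exact permutation test, p = 0.00217, adjusted over 10 tests 0.00722). The same ratio averaged -1.23 ± 0.175 at 24 and 48 h and -0.52 ± 0.187 at 36 and 60 h, a difference of -0.71 with the same exact p, which is the smallest that 6 against 6 libraries can give. The groups did not overlap in either comparison. Nr1d2 over Rora, the repressor gene against that of the activator of the same elements, averaged 3.53 ± 0.144 at 18 and 42 h and 2.97 ± 0.326 at 30 and 54 h (difference 0.56, exact permutation test, adjusted p = 0.00722). It averaged 3.36 ± 0.26 at 24 and 48 h and 2.99 ± 0.122 at 36 and 60 h (difference 0.38, exact permutation test, adjusted p = 0.0217). Arntl over Clock, the 2 parts of the activator, was lower by 0.32 on the log2 scale at 18 and 42 h than at 30 and 54 h. It was also lower by 0.32 at 24 and 48 h than at 36 and 60 h (exact permutation tests, adjusted p = 0.0253 each). The first of these 2 calls was lost without any 1 of 7 of its libraries (18 h replicates 1 and 3, 30 h replicates 2 and 3, 42 h replicate 3, 54 h replicates 2 and 3), with adjusted p up to 0.0505. Without the libraries of 1 replicate number no ratio passed, where 4 against 4 libraries allow an exact p no smaller than 0.0286. Arntl over Nr1d2 stayed at that value in both comparisons. Arntl over Clock at 18 and 42 h against 30 and 54 h had p = 0.2 without replicate 3 (exact permutation test). Nr1d2 over Rora at 24 and 48 h against 36 and 60 h had p = 0.0571 without replicate 1 or 2 (exact permutation tests).

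**Figure D3:**
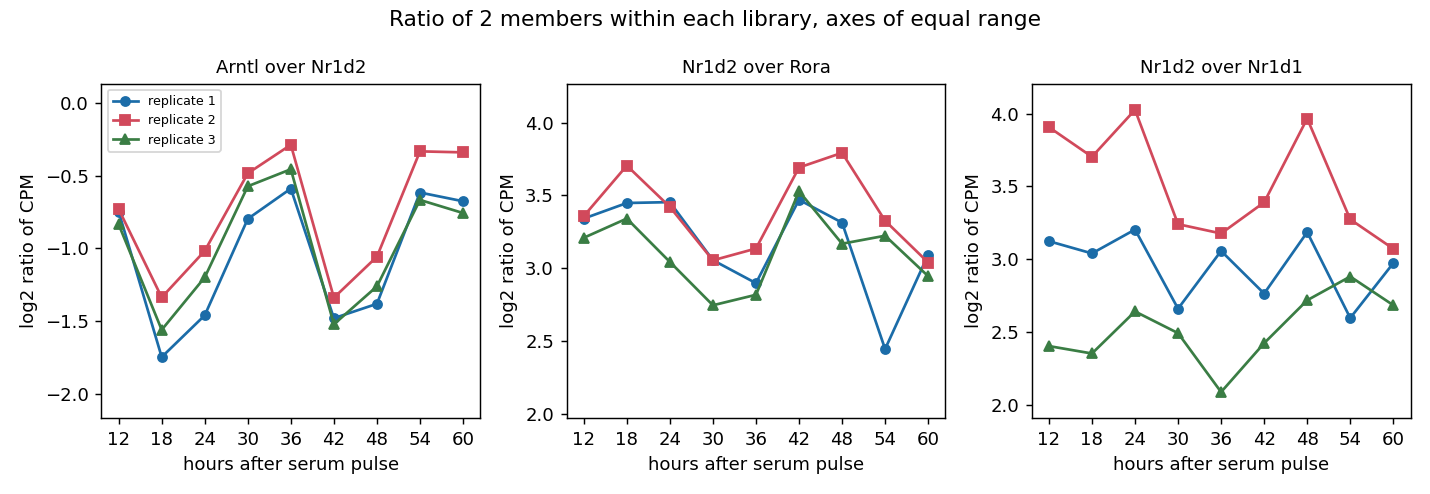
Log2 ratio of 2 of the genes within each library against hours after the pulse, with 1 line per replicate number and axes of equal range. Arntl over Nr1d2 drops at 18 and 42 h in all 3 lines, Nr1d2 over Rora is high at the same times, and the 3 lines of Nr1d2 over Nr1d1 run at separate heights through most of the series.

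Nr1d1, the REV-ERB alpha gene (chromosome 11, 98767932 to 98775333, minus strand), differed more between replicate numbers than between times. Its levels in replicates 1, 2 and 3 were 8.57, 4.78 and 12.5 CPM at 12 h, 12.7, 6.58 and 16.9 at 18 h and 10.3, 4.76 and 13.3 at 24 h. They were 10.7, 6.50 and 10.3 CPM at 30 h, 8.36, 6.83 and 13.9 at 36 h and 13.7, 8.35 and 16.1 at 42 h. They were 10.1, 5.25 and 13.3 CPM at 48 h, 10.3, 6.33 and 9.36 at 54 h and 9.63, 8.13 and 12.3 at 60 h. Replicate 2 was the lowest at 9 of 9 time points and replicate 3 the highest at 7 of 9, and the deviation of the replicate 2 libraries from their time point's mean averaged -0.58 on the log2 scale. At 18 and 42 h the 6 libraries ranged from 6.58 to 16.9 CPM (median 13.2), against 6.33 to 10.7 CPM (median 9.82) at 30 and 54 h, so that the groups overlapped. The log2 difference was 0.48 ± 0.29 with a 95% interval of -0.09 to 1.04 (edgeR adjusted p = 0.742). Within replicates 1, 2 and 3 it was 0.33, 0.21 and 0.74, and without the replicate 2 libraries 0.55 ± 0.17 (adjusted p = 0.245). These edgeR fits held no term for the replicate number, so differences between numbers count in their error. A fit with that term is given in the last section.

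The fitted wave of Nr1d1 had a log2 swing of 0.51 ± 0.27 and a peak at 18.3 ± 1.78 h (adjusted p = 1), a swing close in size to the 0.50 ± 0.08 of Arntl with a larger error. Within replicates 1, 2 and 3 the swing was 0.45, 0.46 and 0.72, and without replicate 2 it was 0.57 ± 0.16 (adjusted p = 0.722). The highest library of each replicate number was at 18 or 42 h. The log2 ratio of Nr1d2 over Nr1d1 averaged 2.95 ± 0.537 at 18 and 42 h and 2.86 ± 0.335 at 30 and 54 h (exact permutation test, n = 6 each, adjusted p = 0.79), and 3.29 ± 0.595 at 24 and 48 h and 2.84 ± 0.406 at 36 and 60 h (adjusted p = 0.241). These permutations took no account of the replicate number. For the second comparison, a permutation within numbers is given in the last section. The low level of the replicate 2 libraries was shared by Rora, lowest there at 9 of 9 time points (mean log2 deviation -0.22), and Npas2, at 7 of 9 (-0.48). Arntl instead was highest in replicate 2 at 8 of 9 time points (0.11). In these libraries the myoblast and reserve cell markers named above were also lowest, and the part of either in the result was not tested; in bulk RNA fewer cells of a type and less RNA per cell cannot be told apart.

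Nr1d1 shares 263 exon bases, 8.55% of its exon length, with Thra, the thyroid hormone receptor alpha gene on the opposite strand, and reads there cannot be told apart if counting ignored strand, which is not given in the sources used here. Thra averaged 46.8 ± 4.27 CPM (SD, n = 3) at 12 h, 72.3 ± 3.65 at 36 h and 55.9 ± 5.91 at 60 h, and changed over the time points (edgeR adjusted p = 0.000124) without a called wave (log2 swing 0.08 ± 0.12). Nr1d1 averaged 12.1 CPM at 18 h, 9.70 CPM at 36 h, where Thra was highest, and 12.7 CPM at 42 h. Thra was lowest in the libraries numbered 2 at 6 of 9 time points and highest in those numbered 3 at 7 of 9. Its mean log2 deviations in these libraries were -0.07 and 0.07, against -0.58 and 0.45 for Nr1d1. The part of the shared bases in the level of Nr1d1 was not tested.

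**Figure D4:**
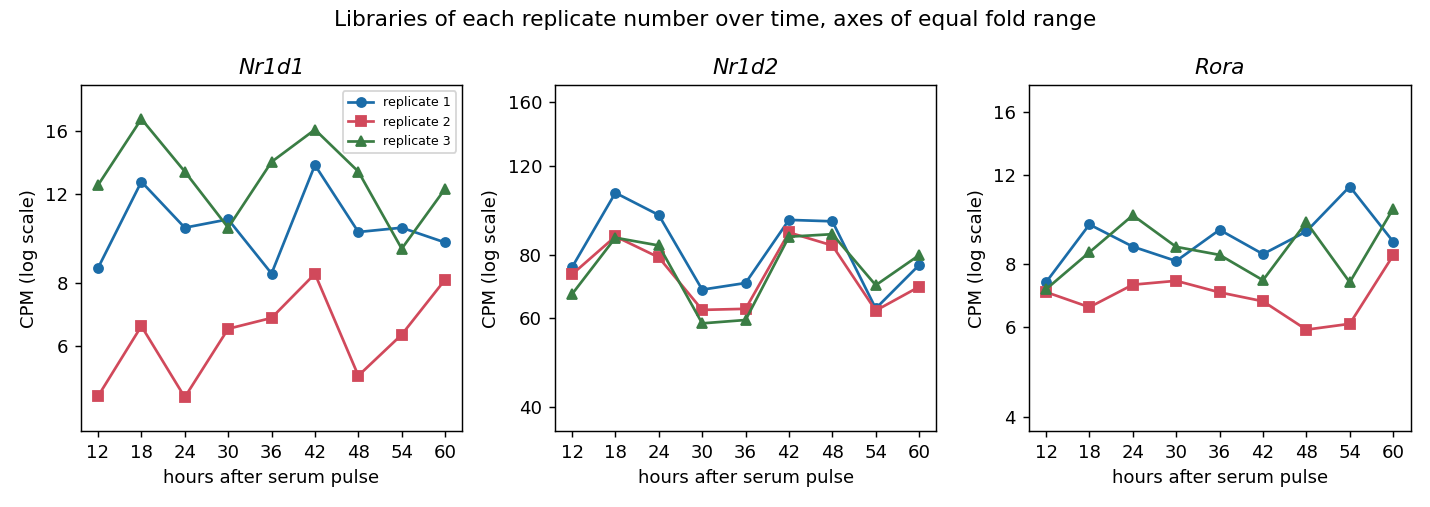
Levels of Nr1d1, Nr1d2 and Rora (CPM, log axes of equal fold range) against hours after the pulse, with 1 line per replicate number. The 3 Nr1d1 lines are separated over most of the series, with replicate 2 at 4.76 to 8.35 CPM, while the Nr1d2 lines run close together and peak at 18 and at 42 or 48 h.

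Clock (chromosome 5, 76209868 to 76304792, minus strand), the usual partner of BMAL1, stayed within 120 to 168 CPM in the 27 libraries. Its highest mean was 151 ± 12.3 CPM at 54 h and its lowest 135 ± 5.23 CPM at 12 h (SD, n = 3). The test of any change gave an edgeR adjusted p of 0.95 and the wave a log2 swing of 0.07 ± 0.06. The interval of the difference between 18 and 42 h and 30 and 54 h was -0.21 to 0.04, and that between 24 and 48 h and 36 and 60 h was -0.19 to 0.06. Libraries numbered 1 were the highest at 7 of 9 time points. Npas2 (chromosome 1, 39193731 to 39363236, plus strand) ranged from 0.265 CPM in a 48 h library to 1.55 CPM in a 54 h library, with a swing of 0.13 ± 0.31. Its interval between 18 and 42 h and 30 and 54 h, -0.80 to 0.68, spans changes larger than those called for Arntl and Nr1d2. A change of that size in Npas2 could thus have been missed. The part of low counts in this spread was not tested. The log2 ratio of Clock over Npas2 averaged 7.47 ± 0.421 at 18 and 42 h and 7.56 ± 0.663 at 30 and 54 h (exact permutation test, n = 6 each, adjusted p = 0.79).

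Rora (chromosome 9, 68653786 to 69388246, plus strand), whose product activates through the elements that REV-ERB represses, ranged from 5.94 to 11.4 CPM. Its mean was 9.16 ± 1.01 CPM at 60 h and 7.18 ± 0.164 CPM at 12 h (SD, n = 3), and its wave had a log2 swing of 0.05 ± 0.12 (adjusted p = 1). The difference between 18 and 42 h and 30 and 54 h had an interval of -0.33 to 0.23. Rorb, the ROR beta gene, was of the same low order per length, at 0.458 CPM per kilobase of exon on average, and passed none of the tests of any change, the wave, the trend or 60 h against 12 h. Arntl2, the paralogue of Arntl, averaged 3.46 CPM, or 0.608 CPM per kilobase, with a swing of 0.41 ± 0.12 that did not pass (adjusted p = 0.825).

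The last time point was set against the first to describe drift over the 48 h. At 60 h Arntl had 47.7, 54.5 and 47.2 CPM, against 44.9, 44 and 37.4 CPM at 12 h, which do not overlap, and the log2 difference was 0.24 ± 0.09 (edgeR adjusted p = 0.0894). Rora had 8.87, 8.33 and 10.3 CPM at 60 h, against 7.37, 7.05 and 7.14 CPM at 12 h, also without overlap (log2 difference 0.35 ± 0.20, adjusted p = 0.28). The difference was 0.42 ± 0.47 for Npas2, with a 95% interval of -0.50 to 1.33 (edgeR adjusted p = 0.651). It was 0.21 ± 0.41 for Nr1d1, with an interval of -0.59 to 1.01 (edgeR adjusted p = 0.815). Both intervals leave room for changes as large as those called for Arntl in the phase comparisons. None of the 6 genes was called between 60 h and 12 h by edgeR, DESeq2 or limma-voom, although Arntl had an unadjusted p under 0.05, against 16.1% of all genes called. The linear trend also gave 0 of 6 by these 3 tools, with Arntl (0.20 ± 0.08 per 48 h, adjusted p = 0.0905) under an unadjusted p of 0.05, against 19.4% of all genes. When separate waves were fitted to the second day (36 to 60 h) and the first (12 to 30 h), Nr1d2 had log2 swings of 0.57 and 0.62 and peaks at 20.3 and 19.7 h, and Arntl had swings of 0.60 and 0.42 and peaks at 8.89 and 7.90 h. A difference between the days was called for 5.75% of all genes and for 0 of the 6 by edgeR, DESeq2 and limma-voom, with no unadjusted p under 0.05 (adjusted p = 1 for Nr1d2 and 0.803 for Arntl).

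Single steps of 6 h placed the moves of Nr1d2 and Arntl. Nr1d2 rose at 18 h against 12 h (log2 0.37 ± 0.09), fell by 0.45 ± 0.09 at 30 h against 24 h, rose again at 42 h against 36 h (0.49 ± 0.09) and fell by 0.45 ± 0.09 at 54 h against 48 h (edgeR adjusted p = 0.0154, 0.0158, 0.00955 and 0.037). Arntl fell by 0.41 ± 0.10 at 18 h against 12 h and by 0.52 ± 0.10 at 42 h against 36 h (adjusted p = 0.00971 and 0.00766). Of all genes, 5.08% were called at the step to 18 h, 0.733% to 30 h, 0.575% to 42 h and 0.221% to 54 h. At the other 4 steps, to 24, 36, 48 and 60 h, 0 of the 6 genes were called against 1.86%, 0.189%, 0.134% and 0.0709% of all genes, with 1, 1, 0 and 1 of the 6 under an unadjusted p of 0.05. Each of the 6 calls was lost without certain libraries, while the log2 difference kept its direction and ran from -0.49 to -0.36 and from -0.57 to -0.45 for the 2 falls of Arntl, and from 0.27 to 0.43, -0.52 to -0.37, 0.44 to 0.56 and -0.51 to -0.40 for the 4 moves of Nr1d2. Leaving out 12 h replicate 1 or 18 h replicate 3 ended the first Arntl call, 12 h replicate 2 or 3 or 18 h replicate 1 the first Nr1d2 call, and 24 h replicate 1 or 3 or 30 h replicate 2 or 3 the second. Leaving out 36 h replicate 2 or 42 h replicate 3 ended the second Arntl call, 36 h replicate 2 or 3 or 42 h replicate 1 the third of Nr1d2, and any of 16 of the 27 libraries, some of other time points, the last. Over 36 alternatives, which include leaving out whole replicate numbers, the 2 Arntl calls held in 32 and 31 (edgeR adjusted p up to 0.404 and 0.49). The 4 Nr1d2 calls held in 30, 29, 30 and 17 (edgeR adjusted p up to 0.174, 0.362, 0.311 and 0.759).

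Times 24 h apart compare equal phases. Between 36 and 12 h, 42 and 18 h, 48 and 24 h, 54 and 30 h and 60 and 36 h none of the 6 genes was called by edgeR, against 16%, 6.73%, 3.93%, 1.73% and 0.859% of all genes, and only Nr1d2 at 60 h against 36 h had an unadjusted p under 0.05 (log2 0.23 ± 0.09, adjusted p = 0.446). DESeq2 and limma-voom made 6 calls over the steps and these pairs, as many as edgeR.

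The peaks of the 6 genes were set beside those of 15 other core clock genes, a list chosen with earlier results known. Of the 15, 5 had a called wave: the period genes Per2 (log2 swing 0.84 ± 0.10, peak at 23.4 h) and Per3 (0.71 ± 0.12, 22.7 h), the cryptochrome gene Cry1 (0.41 ± 0.05, 1.81 h), and the PAR bZIP genes Dbp (1.17 ± 0.11, 20.4 h) and Tef (0.39 ± 0.06, 21.7 h). With Arntl and Nr1d2 they make up the 7 genes called for the wave in the whole table. Nr1d2 thus peaked at nearly the hour of Dbp and Arntl at about the hour of Nfil3, whose wave was not called (0.23 ± 0.06, 9.64 h). The median swing of the 15 genes was 0.41, against 0.10 over all genes tested, and 8 of the 15 passed the test of any change, against 18.5% of all genes.

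**Figure D5:**
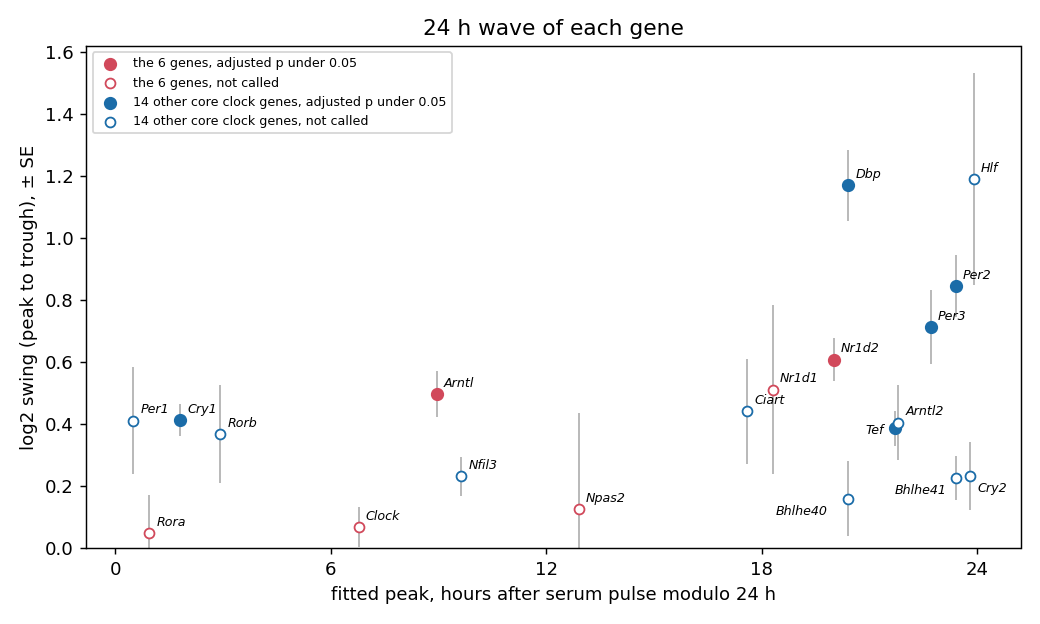
Log2 swing of the fitted 24 h wave (± SE) against its peak in hours after the pulse, for the 6 genes and 14 of the 15 other core clock genes; filled points had an adjusted p under 0.05. Arntl, at 8.95 h, lies far in phase from Nr1d2 at 20 h and from the filled Dbp, Tef, Per3 and Per2 points at 20.4 to 23.4 h, with Cry1 at 1.81 h.

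Across the 9 time point means of log2 CPM, the gene most like Nr1d2 among 11504 candidates was Dbp, with Pearson r = 0.961 over the 9 means and 0.823 over the 27 libraries, followed by Xpo1 (0.888 and 0.753) and Impad1 (0.875 and 0.596). The genes most opposite to it were Emc10 (-0.912 and -0.677), Gtpbp6 (-0.894 and -0.62) and Fastk (-0.88 and -0.428). The gene most like Arntl was Mrpl17 (0.953 and 0.696), followed by Znrd1 (0.936 and 0.626) and Tmem11 (0.919 and 0.66). Most opposite to Arntl were Fam208a (-0.968 and -0.708), Slc25a16 (-0.918 and -0.393) and Snx19 (-0.898 and -0.537). Arntl and Nr1d2 themselves had r = -0.789 over the 9 means and -0.684 over the 27 libraries. For the members without a called wave, r over the 27 libraries varied among the 3 genes most alike by their means. It ran from -0.245 for Sh3gl1 to 0.48 for Tdg with Clock (0.956 and 0.944 over the means), and from -0.276 for Mbd2 to 0.534 for Irx2 with Npas2 (0.917 and 0.926). It ran from -0.611 for Abcg2 to 0.514 for Lgr4 with Nr1d1 (0.896 and 0.907), and from -0.394 for Tank to 0.627 for Usp34 with Rora (0.926 and 0.933). These values describe genes measured in the same libraries, which share depth and replicate number.

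Genes of related pathways were counted by list, beside 18.5% of all genes called for any change, 0.0552% for the wave, 19.4% for the trend and 16.1% at 60 h against 12 h. Of 13 genes of the REV-ERB corepressor complex and its turnover, Ncor1 and Hdac3 among them, 0 passed the tests of any change, the wave, the trend or 60 h against 12 h, and their median span over the time points was 0.19, against 0.31 over all genes. Of 8 ROR coactivators, 1 passed, Kat2b, an acetyltransferase gene, which rose at 60 h against 12 h (log2 0.31 ± 0.09, edgeR adjusted p = 0.0267). Of 22 coactivators and modifiers of CLOCK and BMAL1, 3 passed the test of any change, namely Mybbp1a, Nampt and Kdm5a, and 0 had a called wave. Nampt, whose product makes a precursor of the NAD+ that sirtuins use, spanned 0.55 on the log2 scale (adjusted p = 0.0117). Of 15 genes of heme synthesis and breakdown, which set the level of the REV-ERB ligand, 2 passed the test of any change: Cpox, a late synthesis enzyme, which fell by 0.35 ± 0.08 at 60 h against 12 h (adjusted p = 0.00234), and Hmox1, the heme oxygenase, which spanned 0.61 (adjusted p = 0.00243). None of the 15 had a called wave.

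Among 19 tested genes of 22 listed as known REV-ERB and ROR targets, 6 passed the test of any change (18.5% of all genes) and 1 had a called wave, Cry1, which is also in the core clock list. The linear trend was called for 6 of the 19 (19.4% of all genes), among them upward for Srebf1 (log2 0.98 ± 0.11 per 48 h) and Il6 (0.55 ± 0.16), and downward for Fgf21 (-3.05 ± 0.24), Ucp3 (-1.19 ± 0.33) and Plin2 (-0.33 ± 0.09). The median trend of the 19 was 0.07, against -0.01 over all genes. Nfil3, a repressor that competes at D-boxes, passed the test of any change (span 0.36, adjusted p = 0.0411). Of 12 tested bHLH-PAS genes of 16 listed, relatives of BMAL1, CLOCK and NPAS2, 3 rose at 60 h against 12 h, a comparison in which 16.1% of all genes were called: Hif1a (0.53 ± 0.09), Ahr (0.63 ± 0.17) and Ahrr (0.69 ± 0.22), and 0 had a called wave. Of 19 tested nuclear receptor genes of 22 listed beside the REV-ERB genes, 2 passed the test of any change, against 18.5% of all genes, namely Thra and the retinoic acid receptor gene Rarb, both higher at 60 h than at 12 h (0.26 ± 0.09 and 0.91 ± 0.26), and 0 had a called wave. The smooth muscle markers rose over the same time, with a summed level of 5130 to 5930 CPM at 60 h and 3330 to 3700 CPM at 12 h, and their part in these late differences was not tested.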

How the data were processed

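The authors deposited 1 table of raw read counts without normalization, with 27 libraries as columns and 20446 genes as rows. The submitters' processing notes name Trim Galore 0.4.0, cutadapt 1.9.1, featureCounts and the mm10 genome; which aligner, annotation and strand option were used is not given in the sources used here. Symbols, positions and exon lengths came from GENCODE M21, which matched 20318 genes. Groups and replicate numbers were taken from the library titles. Genes passing filterByExpr (minimum count 10, 12687 genes) were scaled by TMM (factors 0.979 to 1.03), and CPM on the log2 scale used a prior count of 2. Depth was 15.2 M to 26.6 M counts.

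Tests were edgeR 4.0.16 quasi-likelihood F tests over all genes with Benjamini-Hochberg adjusted p under 0.05. Time was a factor for any change, steps and phase comparisons, and a 24 h cosine and sine with a linear term for the wave and trend, with separate waves for the second day (36 to 60 h) and the first. Ratios used exact permutation tests. Named genes were the 6 members, the 3 most and least alike by r of the 9 means (mean of at least 1 CPM), and up to 4 genes per pathway list with the smallest p; Per3, Nfil3, Arntl2, Rorb, Il6 and Plin2 were named after their values were seen, and some genes that the rule names are not reported here. The members and lists were chosen with earlier results of these data known. The scripts were checked on simulated counts. Alternatives were DESeq2 1.42.0, limma-voom (limma 3.58.1), scaling by median of ratios, a filter of 1 CPM or none, a replicate block, leaving out each library or number, other periods and drift terms, and fits without 12 h or 60 h.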

Additional observations from a re-analysis of the deposited data

How the results depend on the processing

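The labels do not say whether a replicate number pairs libraries: same-numbered libraries deviated from their time point means with r at or under 0.1 in 16 of 36 pairs for number 1, 0 for number 2 and 1 for number 3, although 26 of 27 libraries correlated best with their own number, a hint from the data, not the design. With the replicate block, 2 of the 6 genes were called at 60 h against 12 h (Arntl 0.24, adjusted p = 0.0027; Rora 0.36, 0.0479), 1 for the linear trend (Arntl 0.20, 0.0213) and 10 contrasts among steps and same-phase pairs in place of 6; Nr1d1 was then called for any change (0.0274) and between 18 and 42 h and 30 and 54 h (0.45 ± 0.11, 0.0162), but not for the wave (0.50 ± 0.12, 0.23). Of the 12687 genes tested, the block called 3782 at 60 h against 12 h, 3894 for the linear trend and 5158 for any change. All 3 shares were larger than without the block. For steps, same-phase pairs and phase comparisons, the number of all genes called with the block is not given here. The 10 contrasts and the phase call of Nr1d1 thus have no share of all genes to be read against. With the block, the ratio of Nr1d2 over Nr1d1 was called between 24 and 48 h and 36 and 60 h (difference 0.449, exact permutation within numbers, adjusted p = 0.0265). This made 7 ratios called in place of 6.

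The wave of Arntl had a log2 swing of 0.319, 0.437 and 0.467 at periods of 20, 22 and 28 h (adjusted p = 1, 0.134 and 0.0865), 0.48 without the 12 h libraries (0.0855) and 0.495 from time point means in limma (1), and that of Nr1d2 0.462 at 20 h (0.575) and 0.608 from the means (0.967). Of the 6 genes, the wave was thus called for 0 at 20 h, 1 at 22 h, 1 at 28 h, 1 without 12 h and 0 from the means. Among all genes tested, it was called for 0, 6, 5, 5 and 0 in these settings. The cause was not tested. With the block, the Arntl wave was called without 12 h (0.479, adjusted p = 0.00131) and with a decay term (0.49, 0.000169), alternatives chosen after seeing the data.

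Values that were never called changed sign: the trend of Clock to -0.0102 and of Nr1d1 to -0.0329 without 12 h, of Nr1d1 to -0.0202 and Nr1d2 to -0.102 with no 24 h terms, of Nr1d2 to -0.0798 without 60 h, and Npas2 between 18 and 42 h and 30 and 54 h to 0.0349 in limma-voom.

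Leaving out 1 library or 1 replicate number gave these ranges. Of the 6 genes, 1 to 2 were called for any change, for the wave, and at 18 and 42 h against 30 and 54 h. At 24 and 48 h against 36 and 60 h, 0 to 2 of the 6 were called. Calls numbered 0 to 6 over steps and same-phase pairs and 0 to 6 for ratios. Among all genes tested, calls for any change ran from 761 of 12686 (without replicate 1) to 2421 of 12775 (without 54 h replicate 2). Those for the wave ran from 2 of 12686 (without replicate 1) to 8 of 12788 (without 48 h replicate 2). Counts over all genes for the phase comparisons and steps are not given here. The Arntl swing was 0.456 to 0.519. Between 18 and 42 h and 30 and 54 h, Npas2 ran from -0.245 to 0.223 and Rora from -0.143 to 0.0993. Between 24 and 48 h and 36 and 60 h, Npas2 ran from -0.542 to 0.0602, Nr1d1 from -0.207 to 0.133 and Rora from -0.106 to 0.0657. At 60 h against 12 h, Nr1d1 ran from -0.0752 to 0.566 and Nr1d2 from -0.0308 to 0.134. The trend of Clock ran from -0.0092 to 0.125, of Nr1d1 from -0.0439 to 0.264 and of Nr1d2 from -0.0543 to 0.111. Second-day minus first-day swings ran from -0.0755 to 0.0305 for Clock, -0.343 to 0.554 for Npas2, -0.0653 to 0.43 for Nr1d1, -0.137 to 0.0303 for Nr1d2 and -0.221 to 0.0777 for Rora. The log2 ratio differences ran from -0.279 to 0.0608 and -0.0505 to 0.558 for Clock over Npas2 in the 2 phase comparisons and from -0.0632 to 0.282 for Nr1d2 over Nr1d1 in the first. DESeq2, limma-voom, median of ratios scaling and both filters kept every call of Arntl and Nr1d2. Counting error is largest for Npas2, at 5 to 35 reads a library.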
